A study of Mus musculus with 24 samples.

Results

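The intervals described here are the 3144 positions of open chromatin at which 2 of 4 wild-type (WT) libraries of untreated E14 mouse embryonic stem cells stood well above the other 2. They were chosen from the measured values themselves. In the table of untreated cells (Ctrl), the smaller value of WT replicates 3 and 4 had to be at least 1.5 times the larger value of replicates 1 and 2, and the mean of the 4 WT values had to be 20 or more. Of the 299780 intervals listed for Ctrl, 150311 reached the WT mean, and 3144 of those (2.09%) met the ratio. They are called the WT-split intervals below, and their order in the Ctrl WT libraries is a condition of membership, so it is given as a description with no test. The opposite order, replicates 1 and 2 at least 1.5 times replicates 3 and 4, was found at 1012 intervals (0.673%).

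ATAC-seq was run on E14 cells kept in serum with leukemia inhibitory factor, 50000 live cells per library. Besides WT there were 2 lines labelled as lacking Smad2, named Smad2_KO1 and Smad2_KO2 and called knockout (KO) clones here, each a single line; accessibility does not show whether Smad2 was lost. Libraries were made from cells given no inhibitor (Ctrl) and from cells after 12 h in 200 nM INK128, an mTOR inhibitor whose effect the labels call pausing (Paused), with 4 libraries in each of the 6 groups. The labels number the libraries of every group 1 to 4 and do not say whether they came from separate cultures, whether a Paused library shares its culture with the Ctrl library of the same number, or how the KO lines were made. P-values therefore measure only the spread between these libraries, which may be technical.

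ATAC-seq uses a transposase that inserts adapters where DNA is not covered by nucleosomes, so read counts mark promoters, enhancers and other sites held open by bound factors. Many intervals of this kind away from gene starts are enhancers, and their opening varies between cell states more than that of promoters. No enhancer mark was measured here. Embryonic stem cells in serum are a mixed population that moves between naive and more differentiated states. Smad2 carries Nodal and activin signals to the nucleus, where it acts with Smad4 and partner factors such as Foxh1. Each value is the number of reads in a short interval after division by a factor of its library, called normalised reads here.

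The WT-split intervals lay mostly away from gene starts, and those few that reached a RefSeq promoter window are shown first, because their sequence can be printed. A promoter window here is the stretch from 250 bases before to 50 bases after a RefSeq start. In all, 38 WT-split intervals (1.21%) overlapped 39 windows, 17 of them of protein-coding genes, against 6.87% of all intervals with a WT mean of 20 or more. The 4 protein-coding windows below whose interval was also called in the Paused WT libraries (tested further down) are those of Sprr1a, Dhrs9, Cxcr6 and Arl14, and Odaph is added for its Ctrl ratio of 2.44. They were picked after the values were seen. Each line gives the 250 bases before the start, 5′ to 3′ on the gene's strand, build GRCm38.p6, from RefSeq. Capitals mark matches to TGANTCA, the letters bound by AP-1, the family of Fos and Jun factors that opens enhancers in adherent, stressed and differentiating cells. Sprr1a is at chr3:92485882-92486131 on the minus strand, Dhrs9 at chr2:69380212-69380461 on the plus strand, Odaph at chr5:91987223-91987472 on the plus strand, Cxcr6 at chr9:123806227-123806476 on the plus strand and Arl14 at chr3:69222169-69222418 on the plus strand.
Sprr1a: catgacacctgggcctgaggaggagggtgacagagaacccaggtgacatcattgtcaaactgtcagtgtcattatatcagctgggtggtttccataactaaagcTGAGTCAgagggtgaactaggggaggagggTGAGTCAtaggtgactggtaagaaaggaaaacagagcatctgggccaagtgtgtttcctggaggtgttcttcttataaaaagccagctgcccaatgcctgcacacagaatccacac
Dhrs9: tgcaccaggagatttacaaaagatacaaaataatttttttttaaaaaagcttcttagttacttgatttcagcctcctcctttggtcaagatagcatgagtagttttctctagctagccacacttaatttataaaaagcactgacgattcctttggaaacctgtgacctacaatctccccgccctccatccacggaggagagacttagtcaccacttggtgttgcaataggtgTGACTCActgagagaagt
Odaph: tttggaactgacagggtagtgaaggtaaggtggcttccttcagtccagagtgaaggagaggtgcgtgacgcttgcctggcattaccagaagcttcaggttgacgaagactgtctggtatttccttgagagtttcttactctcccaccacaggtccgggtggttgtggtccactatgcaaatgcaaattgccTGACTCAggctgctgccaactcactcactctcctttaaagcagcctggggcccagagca
Cxcr6: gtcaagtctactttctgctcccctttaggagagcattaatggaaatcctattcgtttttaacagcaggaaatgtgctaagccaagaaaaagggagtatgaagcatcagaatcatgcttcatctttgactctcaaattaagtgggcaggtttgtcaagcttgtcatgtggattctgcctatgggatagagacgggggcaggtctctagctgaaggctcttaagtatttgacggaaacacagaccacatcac
Arl14: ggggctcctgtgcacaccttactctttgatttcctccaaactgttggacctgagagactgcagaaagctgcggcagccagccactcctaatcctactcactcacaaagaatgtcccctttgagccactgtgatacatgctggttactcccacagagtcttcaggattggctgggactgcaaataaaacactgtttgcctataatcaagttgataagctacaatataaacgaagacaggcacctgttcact

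Sprr1a encodes a small proline-rich protein of the cornified envelope of skin. Its window holds AP-1 letters that begin 146 and 116 bases before the start, and the interval covers the bases from -246 to -46. In Ctrl WT this interval had 25.63, 27.77, 87.61 and 60.39 normalised reads in replicates 1 to 4, and the 8 KO libraries ran from 6.04 to 10.28. In Paused the WT values were 23.75, 11.81, 63.66 and 56.95, with replicates 3 and 4 again the high ones, and the KO values ran from 4.53 to 9.75. Dhrs9, a retinol dehydrogenase of epithelia, had 23.75, 20.39, 50.71 and 58.27 in Paused WT and holds AP-1 letters 18 bases before its start. Odaph, a gene of enamel mineralisation, holds them at -59 and had 22.43, 18.81, 54.76 and 62.55 in Ctrl WT. The windows of Cxcr6, the receptor for the chemokine Cxcl16, and of Arl14, a small GTPase of the ADP-ribosylation factor family, hold none. Their Paused WT values were 19.43, 9.66, 38.84 and 66.22 at Cxcr6, and 15.11, 12.88, 42.08 and 35.76 at Arl14. Since 4 of these 5 windows were picked for their Paused WT difference, they do not stand for the rest. At Dmkn, a gene of the epidermis whose window also holds the letters, the Paused WT values were 23.75, 20.39, 44.23 and 17.22, and at Ikbkg, a subunit of the kinase that activates NF-kappa-B, they were 20.51, 15.03, 37.76 and 14.57, with replicate 4 the lowest in both.

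AP-1 letters were frequent in the promoter windows that these intervals reached. TGANTCA, the same on both strands, was found in 20 of the 39 windows (51.3%), against 649 of 12305 windows (5.27%) overlapped by any interval with a WT mean of 20 or more and 7.81% of all 32851 windows of this length. Promoters differ in CpG content, and the 39 windows were poor in CpG, with a median of 3 per window against 20. Among windows with 5 CpG or fewer the share was 16 of 32 (50.0%), against 181 of 1359 (13.3%) for those overlapped by any interval with a WT mean of 20 or more and 11.4% of all such windows. Of 14 windows reached by the opposite-order intervals, 1 (7.14%) held the letters. Read the other way, 19 of 594 promoter intervals with AP-1 letters in their window were WT-split (3.2%), against 19 of 9736 without (0.195%). A match to these letters is a description and not a measured binding site, and whether it bears on the split was not tested. No genome was used here, so the sequence of the intervals away from promoters, which are nearly all of them, was not searched.

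Other motifs were searched on both strands in the same windows. The TEAD letters GGAATG were in 28.2% of the 39 windows against 12.4% of the 12305, and the SMAD box CAGACA in 30.8% against 16.6%. The Foxh1 letters AATCCACA were in 2 of the 39 (5.13%) against 0.479%, and the octamer ATGCAAAT, bound by Oct4, in 2 (5.13%) against 1.70%. Against all 32851 windows the shares were 14.7% for TEAD, 21.0% for the SMAD box, 0.855% for Foxh1 and 1.74% for the octamer. Lower shares than in the 12305 were found for the core of the CTCF motif (5.13% against 20.0%), for AGATAA of the GATA factors (2.56% against 5.75%) and for GGGNGTGG of the KLF family (20.5% against 23.9%). Of all windows 13.3% held the CTCF core, 11.2% the GATA letters and 17.6% the KLF letters, so that the KLF share was above that of all windows. The shares of motifs other than AP-1 were not compared within windows of like CpG content. The 39 windows held 27 matches to the AP-1 letters, of which 2 shared a base with a match of another motif.

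**Figure D1:**
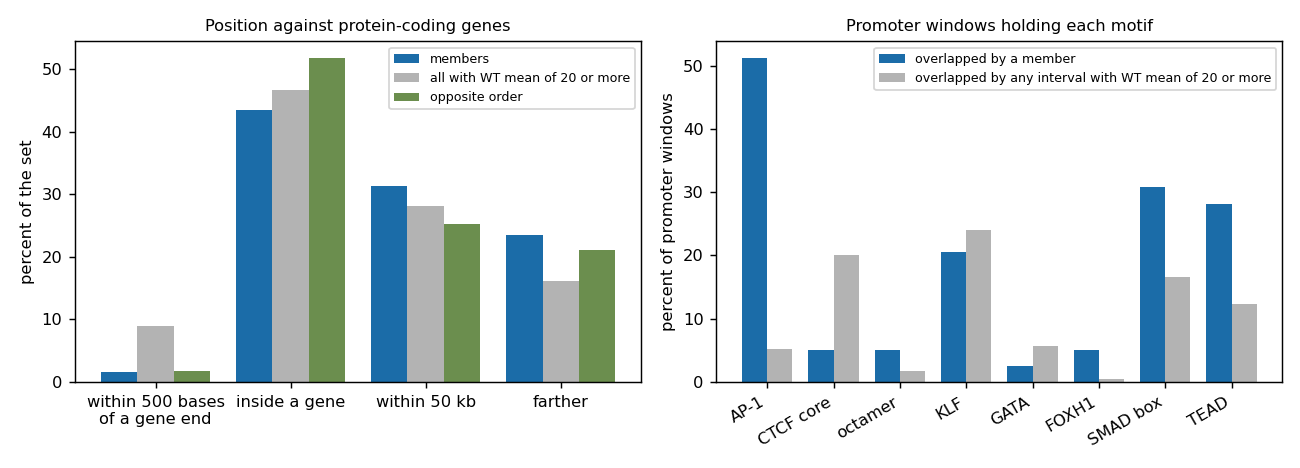
Left, the percent of each set of Ctrl intervals in 4 classes of position against protein-coding genes, for the 3144 WT-split intervals (blue), all 150311 with a WT mean of 20 or more (grey) and the 1012 of opposite order (green). Right, the percent of RefSeq promoter windows that hold the letters of each motif, for windows overlapped by a WT-split interval (blue, 39) or by any interval with a WT mean of 20 or more (grey, 12305); AP-1 letters stand at 51.3% against 5.27%.

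Levels in the single libraries give the size of the split. At the WT-split intervals the median Ctrl value was 20.3 and 17.9 normalised reads in WT replicates 1 and 2, and 41.6 and 45.3 in replicates 3 and 4. The medians of the 8 KO libraries ran from 14.9 to 17.5, nearer to WT replicates 1 and 2 than to 3 and 4. Over all 150311 intervals the 4 WT medians were 45.9, 46.6, 44.9 and 43.1, so the 4 libraries did not differ in this way as a whole. The ratio had a median of 1.77 and reached 5.98, and the mean of the 4 WT values had a median of 31.1 and reached 213.1. Low intervals were over-represented: 3.39% of intervals with a WT mean from 20 to 30 were WT-split, against 0.574% of those from 80 to 160 and 0.0323% of those above.

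**Figure D2:**
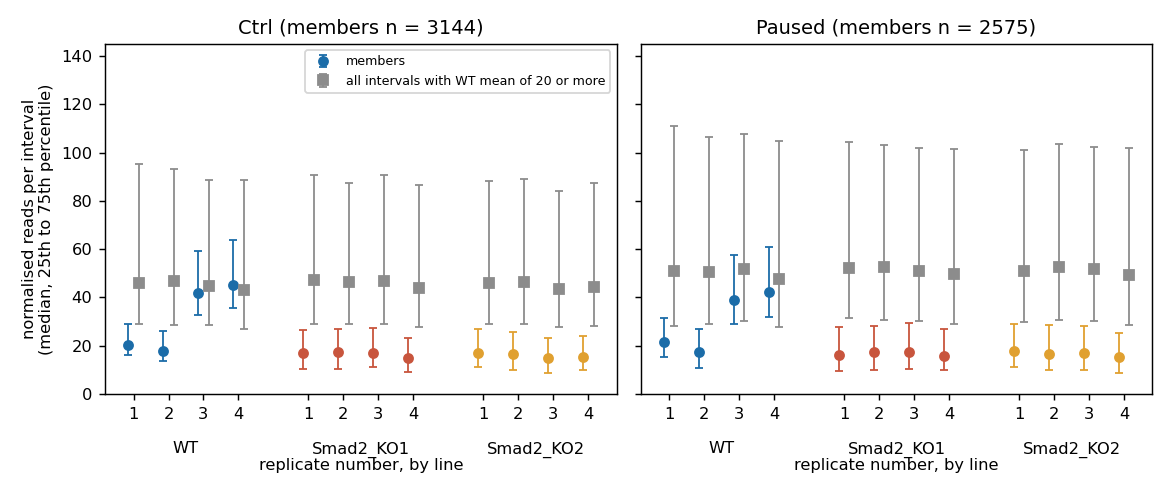
Median normalised reads per interval in each of the 12 libraries of the Ctrl table (left) and the Paused table (right), by line and replicate number; bars run from the 25th to the 75th percentile over intervals. Coloured points are the WT-split intervals and grey squares all intervals with a Ctrl WT mean of 20 or more; only the coloured points of WT replicates 3 and 4 stand near the grey ones.

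Depth differed with the split in Ctrl WT, where replicates 1 to 4 held 13462622, 15681690, 12246944 and 12669439 reads in intervals, so that both 3 and 4 were below both 1 and 2. Their sums of normalised reads were lower too. In Paused WT the reads were 14763067, 13845684, 13917157 and 11456986, an order that does not follow the split. The part of depth in the choice of the intervals was not tested. The share of signal in the strongest 10th of intervals was 49.5%, 47.8%, 46.1% and 49.3% in Ctrl WT replicates 1 to 4 and 51.8%, 48.6%, 47.5% and 51.6% in Paused WT. Pairs of libraries were also compared by a chi-square statistic on recovered reads over 132810 matched intervals with a Ctrl WT mean of 20 or more that were not WT-split, where 1 per degree of freedom is counting noise alone. In Ctrl, WT replicates 1 and 2 gave 1.3 and replicates 3 and 4 gave 1.74, while pairs across the split ran from 1.41 to 1.96, with replicates 1 and 4 the lowest of these. In Paused the values were 1.69, 2.00 and 1.5 to 2.25, again with replicates 1 and 4 lowest. Outside the WT-split intervals, replicate 4 was thus closer to replicate 1 than to replicate 3 in both tables. Same-numbered Smad2_KO1 and Smad2_KO2 libraries gave 0.986, 0.963, 1.06 and 0.995 in Paused and 1.05, 1.3, 1.34 and 0.988 in Ctrl. The Paused pairs 1, 2 and 4 and the Ctrl pair 4 thus differed by no more than counting noise, although their line labels differ, so the clones may not be independent of each other. In Paused, libraries within a clone differed more, from 1.2 to 1.51 in Smad2_KO1 and from 1.11 to 1.62 in Smad2_KO2. A count with same-numbered KO libraries averaged is given where clones are compared.

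Intervals at marker genes of embryonic stem cells were open in every library, as were those at markers of other cell types. The lists differ in their number of genes, so their sums are not compared with each other. In Ctrl WT, Pou5f1 (45.29 to 59.81) and Tdgf1 (70.50 to 130.3) were below Pax6 of the neuroectoderm list (234.0 to 266.1). Nanog overlapped Pax6, and Sox2, Esrrb and Zfp42 were above it. Summed over the strongest intervals at Pou5f1, Nanog, Sox2, Esrrb, Zfp42 and Tdgf1, the Ctrl WT values were 1886, 1769, 1498 and 1544 in replicates 1 to 4, with 3 and 4 the lowest 2. In Paused WT they were 2451, 2199, 1947 and 2270. For primitive endoderm (4 genes) the Ctrl WT sums were 655.8, 639.5, 510.4 and 614.7, for mesendoderm (3 genes) 364.2, 359.2, 279.3 and 374.2, for neuroectoderm (2 genes) 411.2, 404.0, 384.4 and 349.4, for trophoblast (2 genes) 136.7, 122.7, 124.9 and 118.6, and for fibroblast (6 genes) 631.3, 648.5, 615.5 and 662.1. Replicates 3 and 4 were also the lowest 2 for primitive endoderm and neuroectoderm. Nanog, Sox2, Esrrb and Zfp42 had this order in the stem cell list. Pou5f1 (59.81, 48.37, 54.76 and 45.29) and Tdgf1 (70.50, 111.1, 130.3 and 79.80) did not. The mean over all 150311 intervals was lower in replicates 3 and 4 too (84.0, 81.2, 77.0 and 79.5). None of the marker lists had both replicates 3 and 4 above both 1 and 2, no marker was at 0 in any library, and no marker interval was WT-split. ATAC-seq signal at a gene is not its expression, and a change in the mix of cells and a change within cells cannot be told apart in such bulk libraries.

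The main question was whether the order of the WT libraries recurs in the Paused table, which holds other libraries and its own intervals. Matching needed an overlap of at least 50% of each interval. Of the 3144 WT-split intervals 2575 (81.9%) had a match, against 90.1% of all with a WT mean of 20 or more, and the 569 without one were weaker (median WT mean of 24.1 against 33.3). At 2291 of the 2575 (89.0%) both Paused WT replicates 3 and 4 were above both replicates 1 and 2, against 15.8% of all 135385 matched intervals. At 1507 (58.5%) the ratio was again at least 1.5, against 2.4% of all. The opposite order was found at 11 (0.427%), against 20.2% of all, and at none by a ratio of 1.5, against 0.425% of all. The median Paused WT values at these intervals were 21.6, 17.2, 38.8 and 42.4 normalised reads in replicates 1 to 4.

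Recurrence rose with the size of the Ctrl ratio and with the level. It was 83.1% in the lowest of 4 bands of the ratio, 92.3% in the next, up to a ratio of 2, 95.4% from 2 to 2.5 and 98.3% above. By Ctrl WT mean it went from 83.5% between 20 and 30, through 88.8% and 94.7%, to 97.8% between 80 and 160. Among intervals that were not WT-split the share fell over the same levels, from 17.2% to 12.9%. By position it was 87.2% at gene ends, 88.8% inside genes, 88.4% within 50 kb and 90.3% farther away. The 1012 opposite-order intervals did not recur to this extent: 332 of 916 matched (36.2%) kept replicates 1 and 2 above 3 and 4.

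**Figure D3:**
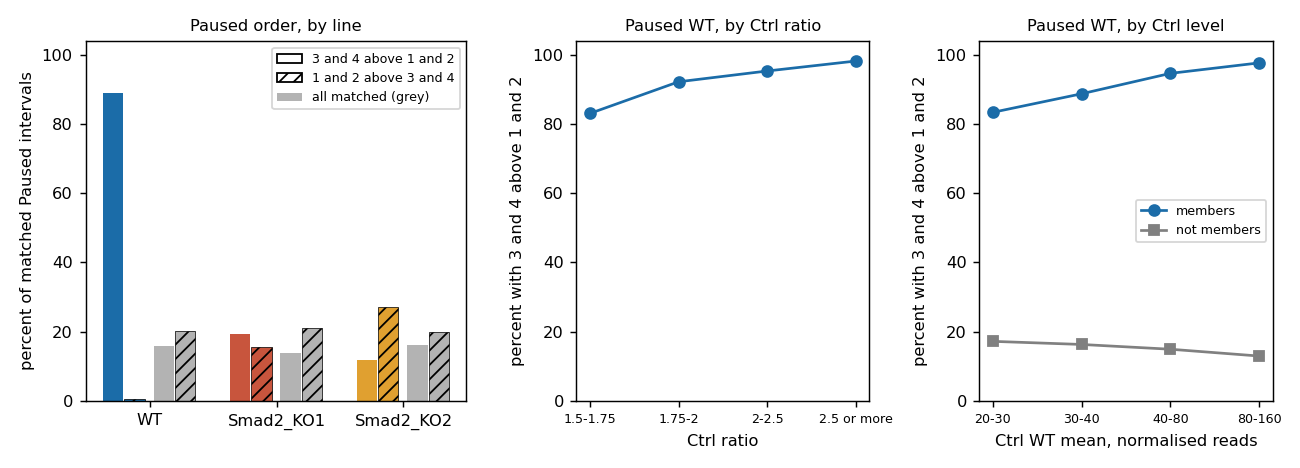
Left, the percent of matched Paused intervals at which replicates 3 and 4 were both above 1 and 2 (plain bars) or both below (hatched), by line, for the 2575 WT-split intervals (coloured) and all 135385 matched intervals (grey). Middle and right, the first of these shares in WT by the Ctrl ratio and by the Ctrl WT mean in normalised reads, up to 160; the WT-split intervals lie between 83.1% and 98.3%, and the others (grey squares) between 12.9% and 17.2%.

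The same replicate numbers did not split the KO lines to the extent seen in WT. In Ctrl, KO1 had replicates 3 and 4 above 1 and 2 at 393 of the 3144 intervals (12.5%; 16.2% of all) and the opposite at 684 (21.8%; 16.9% of all). KO2 had them at 310 (9.86%; 12.7% of all) and 854 (27.2%; 24% of all). In Paused KO1 the counts were 499 of 2575 (19.4%; 13.8% of all) and 403 (15.7%; 21% of all), and in Paused KO2 they were 302 (11.7%; 16% of all) and 701 (27.2%; 19.9% of all). By a ratio of at least 1.5, replicates 3 and 4 were higher in Ctrl at 30 intervals in KO1 (0.954%; 0.151% of all) and 16 in KO2 (0.509%; 0.17%), and lower at 69 (2.19%; 0.333%) and 88 (2.80%; 0.537%). In Paused they were higher at 49 in KO1 (1.90%; 0.206%) and 20 in KO2 (0.777%; 0.169%), and lower at 23 (0.893%; 0.254%) and 75 (2.91%; 0.432%). A difference of this size was thus uncommon in the clones in both directions, next to 58.5% in Paused WT. It was still more frequent at these intervals than over all, in both clones, tables and directions. The difference of replicates 3 and 4 minus 1 and 2, on the log2(value + 1) scale, had a median of 1.14 in Ctrl WT and 1.10 in Paused WT at these intervals, and between -0.15 and 0.03 in the 4 KO groups. Over all matched intervals the Ctrl WT and Paused WT differences correlated with Pearson's r = 0.519 and a Spearman coefficient of 0.332 (n = 135385 intervals of the same 8 libraries). Between Ctrl WT and the 4 KO groups r ran from -0.060 to 0.065. Intervals are not independent replicates, so no p is given.

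**Figure D4:**
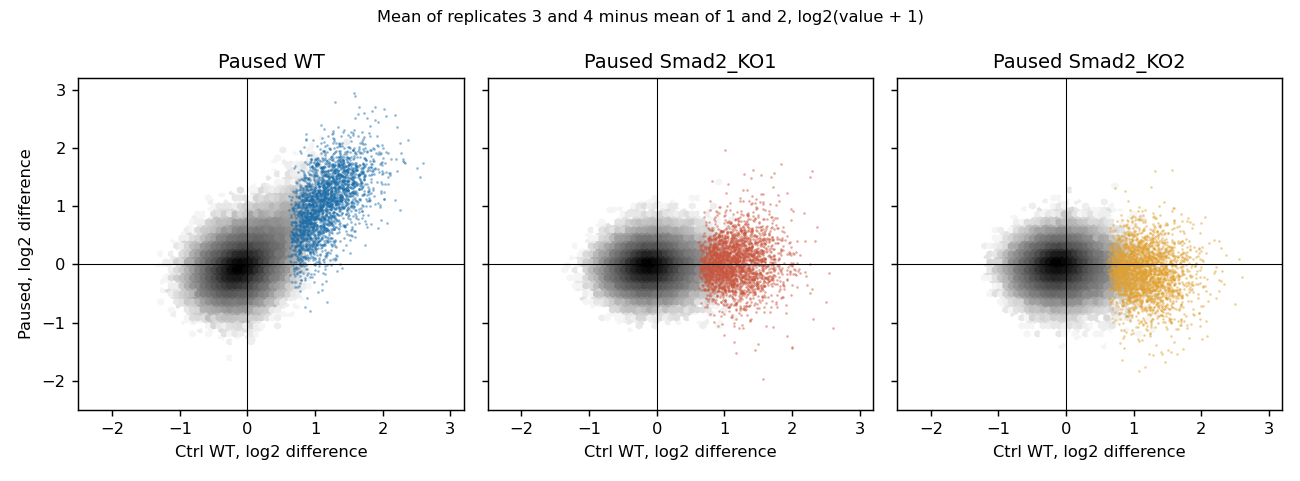
Each panel plots the Paused difference between replicates 3 and 4 and replicates 1 and 2 (vertical, log2 of value + 1) against the Ctrl WT difference (horizontal) for matched intervals, with the WT-split intervals as coloured points and the others as grey density. In Paused WT the coloured points have a median of 1.10; in Paused Smad2_KO1 and Smad2_KO2 they lie around 0, with medians of 0.03 and -0.12.

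The split was then tested in the Paused WT libraries, which the rule did not use. limma was fitted to all 267523 Paused intervals that passed a filter on low values, with each line cut into replicates 1 and 2 and replicates 3 and 4, and Benjamini-Hochberg adjustment over all of them. All but 2 of the matched intervals, 2573, passed the filter. Of these 753 (29.3%) were called higher in replicates 3 and 4 at an adjusted p under 0.05 and none lower. Of all intervals tested 0.654% were called higher and 0.0976% lower (0.751% together). The fit shared a single estimate of spread over WT and both clones, and the Paused KO libraries differed less among themselves than the WT ones. Outside the WT-split intervals, chi-square values within a clone had medians of 1.21 (Smad2_KO1) and 1.34 (Smad2_KO2). WT replicates 1 with 2 gave 1.69 and 3 with 4 gave 2.00. The number of WT calls may therefore be too high. False calls also exceeded the nominal share in simulated data. With 2 libraries on each side the counts turn on single libraries. Far fewer were called without WT replicate 2 or without WT replicate 4, at these intervals and over all intervals tested. In the KO lines none of the matched intervals was called by the same limma test in Paused, and edgeR's quasi-likelihood test called none. By limma 144 (Smad2_KO1) and 216 (Smad2_KO2) of the 2573 had an unadjusted p under 0.05, beside 9343 and 12724 of all 267523. In Ctrl, limma and edgeR likewise called none of the 3144 in either clone. There 247 and 324 were under 0.05 unadjusted by limma, beside 14195 and 17395 of all 293209. In both tables and both clones these were larger shares than of all intervals tested. Across all intervals tested the adjusted calls were 0% in each of these comparisons.

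Whether the difference between replicates 3 and 4 and replicates 1 and 2 was larger in WT than in the clones was tested as well. The WT difference minus the mean of the KO differences was called higher by limma at 314 of the 2573 (12.2%) and lower at none, against 0.252% and 0.0172% of all intervals tested (0.269% together). Far fewer were called without WT replicate 2 or 4, Smad2_KO1 replicate 2 or 4, or Smad2_KO2 replicate 1 or 4. Calls over all intervals tested fell in each of these fits too. Of the 753, 294 were also called here. Both calls contain the same Paused WT difference, so this overlap is not separate evidence, and it was not counted over all intervals. The limit of the shared spread given above applies here too.

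The KO libraries mostly stood near or below the lower WT pair. In Ctrl, the KO mean was lower than the mean of WT replicates 1 and 2 by a median of 0.29 on the log2 scale, and lower than that of replicates 3 and 4 by a median of 1.46. All 8 KO libraries were below both WT replicates 3 and 4 at 2889 intervals (91.9%; 12.7% of all), which the rule favours. All 8 were below both replicates 1 and 2 at 758 (24.1%; 13.8% of all). The KO mean was below both of that lower pair at 1796 (57.1%; 44.5% of all), above both at 693 (22.0%; 25.6% of all) and at or above the lower of replicates 3 and 4 at 57 (1.81%; 68.4% of all). These Ctrl comparisons use the WT values that chose the intervals and carry no test. Between the clones, which the rule did not use, limma called none of the 3144 in Ctrl (0% of all intervals called). Unadjusted, 136 of the 3144 were under 0.05, beside 9713 of all 293209 tested.

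Where the KO mean was low relative to the Ctrl WT libraries, the WT order recurred more often. The groups are set by the Ctrl WT values that chose the intervals as well as by the KO mean. They are thus a description, and a dependence on the KO level itself was not tested. In Paused it recurred at 95.1% of the 1447 matched intervals whose Ctrl KO mean was below both WT replicates 1 and 2, and at 91.0% of the 535 with a KO mean between them. It recurred at 74.4% of the 540 with a KO mean above both but below replicates 3 and 4, and at 26 of 53 (49.1%) where the KO mean reached the lower of replicates 3 and 4. The median Paused WT difference fell over the same groups from 1.23 and 1.13 to 0.63 and 0.25 (log2).

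In Paused, which WT libraries the clones were compared with decided how many intervals were called. Against all 4 WT libraries, limma called both clones lower at 1127 of 2573 (43.8%) and higher at 20 (0.777%). Of all intervals tested 4.9% were lower and 8.81% higher (13.7% together). Of matched intervals with a Ctrl WT mean of 20 or more, which the rule also requires, 8.81% were lower and 6.38% higher. Against WT replicates 3 and 4 alone limma called 1828 lower (71.0%, and 4.06% of all) and 9 higher (6.59% of all). Against WT replicates 1 and 2 alone it called 131 lower (5.09%; 2.59% of all) and 58 higher (5.2% of all). The calls in both directions against all WT came to 1147 (36676 over all intervals tested). They came to 739 without WT replicate 3 (39339 over all) and 626 without WT replicate 4 (28293 over all). With same-numbered KO libraries averaged, 1295 were called lower and 22 higher. Calls rose over all 267523 intervals too, to 17938 lower and 31785 higher from 13115 and 23561. The averaged fit calls the mean of the clones by 1 test and does not ask each clone to pass. The rules of calling thus differ, and the rise does not show that the clones are independent. Of the 753 intervals called for the Paused WT split, 377 were also called lower in both clones, and 750 were called lower in the clones but not for the WT split. Both calls use the same Paused WT libraries, so they are not independent. The overlap was not counted over all intervals, so nothing is read from it.

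Single intervals show the range. The largest Ctrl ratio, 5.98, was at chr7:127730175-127730375 (mm10, as all intervals here), 4.56 kb from Ctf2, a cytokine gene of the interleukin-6 family. Its Ctrl WT values were 6.41, 6.27, 38.33 and 43.14 in replicates 1 to 4, and its KO values ran from 5.62 to 12.34. The Paused WT values were 20.51, 5.37, 25.89 and 50.32, so replicate 1 stood near replicate 3 there, and the difference of 1.67 (SE 0.46) was not called (limma adjusted p = 0.0668). Next in ratio were intervals 281 kb from Foxo1 (4.49), inside Sh3pxd2a, a scaffold of invasive adhesions (4.47), 121 kb from Pudp (4.25), inside Rgs6 (4.10) and inside Pde4b, a cAMP phosphodiesterase (4.04). At Pde4b the Ctrl WT values were 9.61, 8.96, 40.52 and 38.82, and the KO values ran from 0.94 to 5.98.

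The strongest WT-split interval, with a Ctrl WT mean of 213.1, lay at chr2:11429737-11429937, 41.5 kb from Pfkfb3, which makes and breaks down the activator of glycolytic phosphofructokinase. In Ctrl WT it had 157.0, 158.5, 262.8 and 273.9 normalised reads, and in Paused WT 187.8, 152.4, 359.3 and 279.4. The 8 Ctrl KO values lay between 106.2 and 177.5, the Paused ones between 119.2 and 159.0. Replicates 3 and 4 were above the other 2 in both tables, and the Paused difference was 0.90 (SE 0.16, limma adjusted p = 0.00189). An interval inside Camkk1, a kinase upstream of calcium-dependent kinases, had 152.2, 110.6, 267.6 and 227.8 in Paused WT, a difference of 0.92 (SE 0.17, adjusted p = 0.00237). One inside Pstpip1, a cytoskeletal adaptor, differed by 0.85 (SE 0.15, adjusted p = 0.00186), with 202.9, 148.1, 311.8 and 313.9. The interval of the fourth highest mean, inside the Hedgehog effector gene Gli2, had no Paused match, and its Ctrl WT values were 125.0, 135.2, 204.8 and 226.5.

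The largest called change in Paused WT was at an interval inside Runx1, a factor of blood formation, with 4.32, 1.07, 21.58 and 27.81 normalised reads in replicates 1 to 4, a difference of 2.94 (SE 0.55, limma adjusted p = 0.00333). Its KO values ran from 3.8 to 15.55, below both replicates 3 and 4 and overlapping replicate 1. An interval 110 kb from Rgs17, a regulator of G-protein signalling, had 8.64, 2.15, 35.60 and 45.03 against 1.81 to 7.66 in the KO libraries. An interval inside Col27a1, a fibrillar collagen, had 14.03, 4.29, 48.55 and 67.54 in Paused WT, a difference of 2.71 (SE 0.34, adjusted p = 2.29e-05) that exceeded the KO differences by 2.75 (adjusted p = 0.00089). The KO libraries there ran from 19.95 to 32.62, above both WT replicates 1 and 2 and below both 3 and 4. At Rgs17, in contrast, all 8 KO libraries were below WT replicate 1, and their range held WT replicate 2 (2.15). The other 3 of the 6 largest called changes, near LOC108167340, E330014E10Rik and Ercc3, were 2.80, 2.71 and 2.67.

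Not all of the split recurred. The most negative Paused differences were at intervals inside Lrch2 (-0.79, SE 0.51), near Tcaf2 (-0.74, SE 0.28) and inside Tshz2 (-0.65, SE 0.24), none of them called (limma adjusted p = 0.613, 0.276 and 0.242). At Tshz2, a zinc finger gene, Ctrl WT had 12.82, 18.81, 38.33 and 34.51, and Paused WT had 36.70, 37.57, 31.29 and 17.22. The KO libraries were higher than all WT values in Paused, from 48.46 to 70.52. The intervals with the highest KO level relative to WT included those near Egf and Pramel6. At Egf, which encodes epidermal growth factor, Ctrl WT had 12.82, 16.12, 25.19 and 25.88 and the KO libraries 31.87 to 55.35. In Paused, WT had 19.43, 22.54, 20.50 and 14.57, with no split, and the KO libraries 33.26 to 59.60.

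At the other end, an interval 64.7 kb from Zfand6 had 23.50, 6.27, 76.66 and 35.59 in Ctrl WT and 1.01 to 7.20 in the KO libraries. In Paused WT it had 15.11, 6.44, 43.16 and 33.11, and the KO libraries had at most 4.38. Both clones were called lower there (limma adjusted p = 3.28e-05 and 0.00182), while the WT split was not called (0.327). Twf1 (18.0 kb) and Mlxip (inside) had the next lowest KO levels, from 0 to 6.37 over both, and no Paused match.

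**Figure D5:**
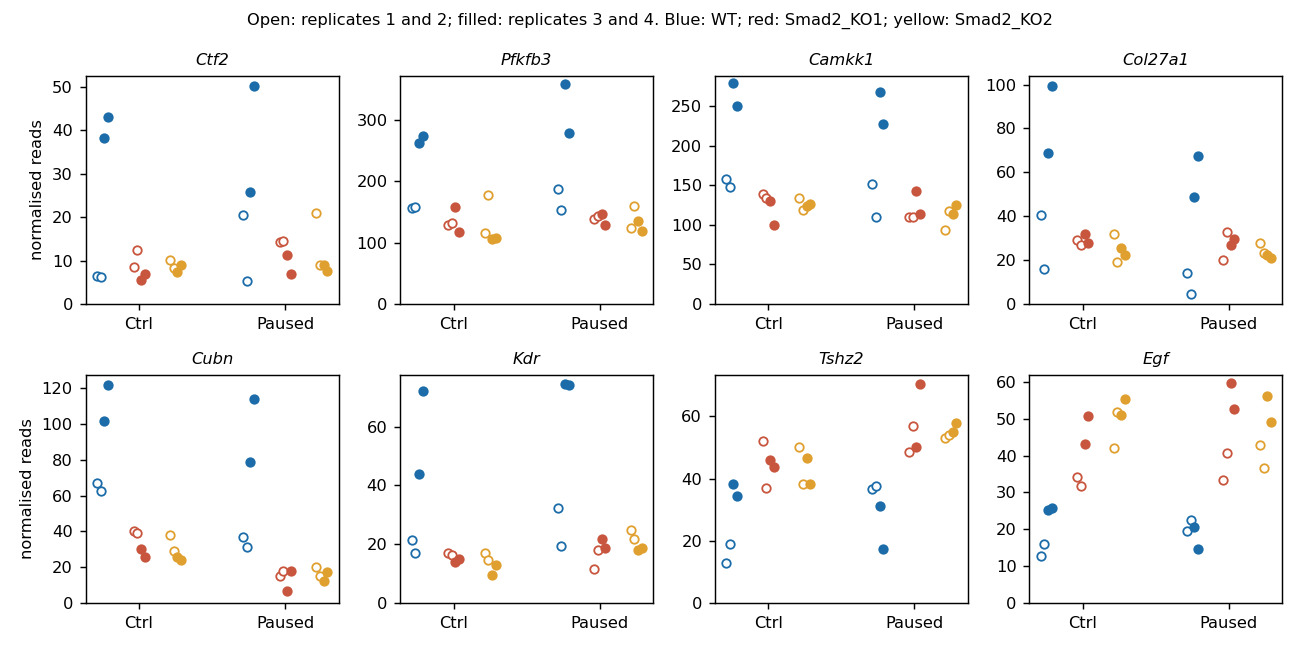
Normalised reads of single libraries at 8 named intervals, titled by the nearest protein-coding gene, in Ctrl and Paused. Open circles are replicates 1 and 2 and filled circles replicates 3 and 4 of WT (blue), Smad2_KO1 (red) and Smad2_KO2 (yellow); filled blue circles are the highest in both tables in the first 6 panels, and the order is not kept at Tshz2 and Egf in Paused.

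At the threshold itself, the intervals just inside (near Bhlhe40, Tmem30b and Itga6) had ratios of 1.5, and those just outside (near Kif18a, inside Coro6 and Josd1) reached 1.4997 at most. Near Bhlhe40 the Ctrl WT values were 115.4, 106.6, 173.0 and 183.3, and inside Josd1 they were 35.25, 25.08, 58.04 and 52.84. The edge of the set is thus not a gap in the values.

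By position, 1369 WT-split intervals (43.5%) lay inside a protein-coding gene, 986 (31.4%) within 50 kb of one and 738 (23.5%) farther away. Only 51 (1.62%) lay within 500 bases of a gene end, against 8.93% of all intervals with a WT mean of 20 or more, while 23.5% against 16.1% lay farther than 50 kb. Gene ends mostly hold strong intervals, which were rarely WT-split at any position. Within the same level from 20 to 30 the WT-split share still ran from 2.31% at gene ends through 2.89% inside genes and 3.67% within 50 kb to 4.45% farther away. The median distance to a RefSeq start was 25.4 kb against 19.7 kb. The opposite-order intervals were placed alike in part, with 1.78% at gene ends and 21.0% farther than 50 kb. The strongest at gene ends were at Rims3, Akt2 and Ube2l6, and at the last, an enzyme that attaches the ubiquitin-like protein Isg15, the KO libraries were above all Ctrl WT values (98.19 to 143.9 against 44.86 to 89.81).

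The WT-split intervals were spread over all autosomes and chromosome X. Their share ran from 1.60% on chromosome 19 to 2.84% on chromosome 3 and was 1.66% on chromosome X; chromosome Y had 0 of 15. Of the 3144, 810 had another within 50 kb, against 57 of the 1012 opposite-order intervals, a smaller set whose count is not on the same scale. Chains with no step over 50 kb and at least 3 of them numbered 61 and held 204. Whether this exceeds what the crowding of all intervals would give was not tested. The longest 5 had 5 each. At chr17:13705545-13743959, 5 of 8 intervals with a WT mean of 20 or more near Tcte2 were WT-split, and at chr3:61344173-61396987 5 of 7 near Rap2b, a small GTPase of the Ras family. The last of the Rap2b chain had 19.43, 13.95, 56.10 and 55.62 in Paused WT (1.70, SE 0.42, limma adjusted p = 0.0368). Another chain ran from 31.8 kb beside Actn1, which encodes alpha-actinin, into Dcaf5, with 5 of 10.

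Nearest genes numbered 2420, of which 1887 had a single WT-split interval. The most were at Klf6, a zinc finger factor induced in stress and adhesion, with 9 of its 56 intervals of a WT mean of 20 or more, and at Cited2, a partner of the p300 coactivator, with 7 of 68. Efna5, an ephrin ligand, had 6 of 42 and Stard13, which holds a lipid-binding START domain, 6 of 39. These 4 genes were named after their counts were seen, and nearest does not mean near: the intervals lay 12.7 to 322 kb from Klf6 and 52.9 to 1177 kb from Cited2, but at most 2.67 kb from Stard13. Of the 6 at Stard13 all kept the WT order in Paused and 4 were called by limma, and of the 9 at Klf6 8 kept it and 2 were called. Among all WT-split intervals tested 29.3% were called, and 89.0% of those matched kept the order. At Klf6 WT replicates 1 and 2 averaged from 12.6 to 40.2 normalised reads in Ctrl, replicates 3 and 4 from 28.3 to 87.5, and the KO libraries from 5.12 to 31.6. At Stard13 the same ranges were 10.3 to 39.8, 28.8 to 111.2 and 7.97 to 26.6.

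Lists of genes by role are described by their share of WT-split intervals beside 2.09% for all genes. The direct targets of Nodal signalling, such as Lefty1, Lefty2 and Smad7, had 0 of 78 and the genes of the 2-cell-like state 0 of 36. Genes of naive pluripotency had 5 of 339 (1.47%), at Klf5 and Sox2, and those of the formative and primed states 5 of 277 (1.81%). Primitive endoderm genes had 8 of 216 (3.7%), mesendoderm genes 5 of 94 (5.32%), neuroectoderm genes 2 of 128 (1.56%) and trophoblast genes 3 of 151 (1.99%). Genes of Pparg and lipid use had 3 of 89 (3.37%), at Angptl4, Plin2 and Rxra. The counts are small, and nothing is read from their order.

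In Paused, the lists are read beside 29.3% called for the WT split and 43.8% called lower in both clones among all WT-split intervals. Of all intervals tested these shares were 0.654% and 4.9%. Of matched intervals with a Ctrl WT mean of 20 or more they were 1.06% and 8.81%. Of the 8 intervals of primitive endoderm genes 4 were at Cubn. Among the 5 that were matched, all kept the WT order in Paused, 4 were called by limma and 3 were called lower in both clones. Of the formative and primed genes 3 of 4 kept the order and none was called, and of the neuroectoderm genes 1 of 2 kept it and none was called. The strongest lay inside Cubn, the endocytic receptor cubilin of visceral endoderm, with 67.29, 62.70, 101.8 and 121.9 normalised reads in Ctrl WT. In Paused it had 36.70, 31.13, 78.76 and 113.9, and the KO libraries 6.91 to 19.98. The Paused WT difference was 1.46 (SE 0.33, adjusted p = 0.0186) and KO minus WT was -1.98 in Smad2_KO1 and -1.77 in Smad2_KO2 (SE 0.285 each, limma adjusted p = 6.10e-06 and 3.48e-05). Of the 5 mesendoderm intervals 4 kept the order and 1 was called, with a median Paused WT difference of 0.57 against 1.09 for all WT-split intervals. The one called, 11.2 kb from Kdr, a receptor of vascular endothelial growth factor, had 32.38, 19.32, 74.44 and 74.16 in Paused WT (1.53, SE 0.30, adjusted p = 0.00494). For trophoblast, the interval 11.1 kb from Elf5 had 33.46, 26.83, 73.37 and 96.68 (1.46, SE 0.28, adjusted p = 0.00394). The naive genes' 5 intervals all kept the order and none was called for the WT split, while 4 were called lower in both clones. The strongest of these, 414 kb from Sox2, had 24.57, 25.98, 58.04 and 79.80 in Ctrl WT and 12.02 to 19.66 in the KO libraries.

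Large gene families showed shares near that of all genes. Odorant and pheromone receptors had 18 of 990 (1.82%), genes with Zfp symbols 40 of 2460 (1.63%), tandem families of germline and placenta 4 of 217 (1.84%) and long genes of adhesion and synapse 22 of 1003 (2.19%). Of the 36 Zfp intervals tested in Paused 17 were called for the WT split, and of the 16 of the long genes 8, beside 753 of 2573 for all. The strongest of the long genes, 27.0 kb from Cntnap2, had 145.7, 135.2, 230.9 and 196.0 in Paused WT (0.60, SE 0.15, limma adjusted p = 0.0373), and KO values from 142.2 to 182.3, below both replicates 3 and 4 and overlapping replicate 1.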

How the data were processed

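ATAC-seq of 24 libraries (4 per group) was deposited as 1 table per treatment. The deposited values are a normalised signal per interval. Within a library they are whole multiples of 1 step (tolerance 0.01), from which the division by a library factor was read. Per the submitters' processing notes, FastQC, Trim Galore, Bowtie2 2.4.1, MACS3 3.0.3 and DiffBind 3.16.0 were used with build mm10; Tn5 shifting, duplicate handling and filters are not given in the sources used here. Whole reads were recovered from the steps; for columns with a step near 1 this cannot be checked as firmly. Tables were normalised and their intervals defined separately, so tests stay within a table.

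The intervals, gene lists and rules for named intervals were chosen with earlier results of these data known. The named intervals are the largest ratios, the highest means, those at the threshold, the largest and most negative Paused changes, the extremes of KO level, the ends of the longest chains, the strongest per list and the strongest at gene ends. limma 3.58.1 in R 4.3.3 (trend) was fitted to log2(value + 1), which understates changes of low intervals, for intervals at 10 or more in at least 2 libraries; the WT and KO split comparisons had 6 and line comparisons 9 residual degrees of freedom. Both clones were called when each passed at 0.05 with 1 sign. The fits were tested on simulated data: for the split comparisons the larger changes were nearly all recovered, most of the smaller ones were missed, and false calls exceeded the nominal share. Alternatives were a pseudocount of 0.1, no filter, DESeq2 1.42.0 size factors, edgeR 4.0.16 on recovered reads, a replicate block and leaving out libraries. Genes were the nearest of 21900 protein-coding genes, and promoters those of RefSeq, assembly GRCm38.p6.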

Additional observations from a re-analysis of the deposited data

Results flagged for a closer look

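In Paused, the difference between replicates 3 and 4 and replicates 1 and 2 was larger in WT than the mean difference in the clones at 314 of the WT-split intervals, by the limma test of that contrast. Among 327 groups of 4 libraries searched at the named intervals and for depth, signal share and median level, 10 held 1 library far from the other 3; chance gives about 1 in 20, or 16.35 groups. All 10 were KO groups at single intervals. The 327 include the Ctrl WT groups at WT-split intervals, where the rule sets 2 low and 2 high values. That works against 1 library standing apart, so 16.35 is too high for this search. The absence of WT groups among the 10 is thus not read as a result. In Paused, the Smad2_KO2 replicate 1 value near Ctf2 was 20.97 with the others from 7.66 to 9.00, the Smad2_KO2 replicate 3 value near Pudp was 16.84 (others 11.99 to 12.75) and that near Tcaf2 33.68 (28.97 to 29.54). Smad2_KO1 had 0 in replicate 2 inside Pde4b (2.59 to 2.98), 142.53 in replicate 3 inside Camkk1 (109.65 to 114.22), 3.46 in replicate 3 near Rgs17 (1.81 to 1.99) and 153.95 in replicate 4 near Cntnap2 (178.64 to 182.27). In Ctrl, Smad2_KO2 had 6.01 in replicate 1 inside Sh3pxd2a (9.06 to 9.56), 177.47 in replicate 2 near Pfkfb3 (106.24 to 116.24) and 10.92 in replicate 2 near Rap2b (8.02 to 8.50).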

How the results depend on the processing

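A ratio of 2 left 883 intervals and a WT mean of 40 or more 973, a mean of 10 or more gave 5916, and leaving out 1 Ctrl WT library, which loosens the rule, gave 4705 to 6864. The share that kept the WT order in Paused stayed between 86.1% and 96.2% under other overlaps, thresholds and DESeq2 size factors, and between 91.5% and 93.9% without 1 Paused WT library. By edgeR, 1293 of 3259 calls for the Paused WT split were WT-split intervals, and 479 of 1105 for the WT difference minus KO differences. Leaving out a library gave 83 to 650 for the first, 56 to 402 for the second and 626 to 1577 for both clones against WT. For both clones, WT replicates 1 and 2 alone gave 189 in both directions together and replicates 3 and 4 alone 1837. Without 1 library the same split in the Ctrl KO lines gave 0 to 3 (Smad2_KO1) and 0 to 2 (Smad2_KO2). The causes were not tested. The alternatives not named here kept each count within 1.5 times.

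Between WT and the clones, same-numbered libraries did not deviate together throughout (r of their deviations from -0.008 to 0.063), so the numbers were not taken as pairs. Between the clones every same-numbered r was positive, from 0.004 to 0.106 in Ctrl and 0.030 to 0.182 in Paused. For other numbers the clones had a mean r of -0.016 in Ctrl and -0.033 in Paused. The main fits still took the KO libraries as independent, and a count with same-numbered ones averaged is given above. With the replicate number as a block, both clones against WT gave 1244 WT-split intervals among 42723 called, and the comparison of the clones in Ctrl 0. No block could be fitted for the split comparisons, because the numbers define the split. The lone library left on 1 side after leaving 1 out was assumed to vary like the others.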

Other observations

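At promoter intervals that were not WT-split, the Paused WT difference of replicates 3 and 4 minus 1 and 2 had a median of -0.01 (log2, 535 intervals) with AP-1 letters in the window and -0.04 (9079) without, and 5 and 6 of them were called higher by limma. Of the intervals called higher in the Paused WT split, 1749 in all, 753 matched WT-split intervals and 1429 matched Ctrl intervals with a WT mean of 20 or more. At the 916 matched opposite-order intervals limma called 5 lower in Paused WT replicates 3 and 4 (0.546%, and 0.0976% of all tested). Both clones were higher than WT there at 85 (9.28%, and 8.81% of all) and lower at 20 (2.18%, and 4.9% of all). Of matched intervals with a Ctrl WT mean of 20 or more, both clones were higher at 6.38% and lower at 8.81%.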
